A study of Salmo salar with 18 samples.

Results

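In the gills of Atlantic salmon (Salmo salar), 118 genes were chosen because their transcripts were higher 1 h after a brief air exposure and were still higher at 6 h. The choice was made among the 69389 genes counted in the series. The members were selected on measured values, namely the level at 1 h and at 6 h against pre-stress with both diets pooled. A gene had to lie on 1 of 16 chromosomes (1 to 6, 9 to 16, 19 and 20), which hold 42615 genes, and to average at least 1 CPM (the count of a gene per 1000000 fragments counted on these chromosomes). Of the 21543 genes that did, 421 (1.95%) had all 6 libraries at 1 h above all 6 at pre-stress. A mean difference of at least 0.6 in log2 CPM at 1 h left 207 of these, and a mean difference of at least 0.3 at 6 h left 126. The choice also left out 12 gene identifiers by name, 8 of which met every other condition, and so 118 genes remained. The changes at 1 h and 6 h are therefore descriptions here, with no test. The comparisons of the diets were not used in the choice and were tested. But the choice required all fish of both diets at 1 h to be above all pre-stress fish. A gene that rose at 1 h in 1 diet only thus could not enter, which limits the diet differences the 118 could show. At 6 h the limit applied to the mean over both diets, so a rise in 1 diet alone could meet it.

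The fish were parr fed for 7 weeks, and for 1 more week of acclimatization, on LAN4, the control diet with a hydrolyzed Debaryomyces hansenii yeast product, or on the control diet (CD) alone. All fish were GEN-innOva GAIN salmon from AquaGen. They were sampled unstressed (pre-stress), or at 1 h or 6 h after being netted out of the water for 1 min and put back. The 6 groups (LAN4 and CD at pre-stress, at 1 h post-stress and at 6 h post-stress) had 3 fish each, and each fish gave 1 gill RNA library. For the last week each diet had 7 tanks of 6 fish, and 6 fish per diet were sampled at each time. The sources do not say which tank each fish came from, so all fish of a group may have shared a tank. If so, tank and group cannot be told apart. The p-values take the fish as independent.

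When a vertebrate cell meets a sudden stimulus, a first wave of genes is transcribed without the need for new protein. These immediate early genes encode transcription factors of the AP-1 and EGR families, and with them come proteins that shut the same signals down, such as phosphatases of MAP kinases. Many of their mRNAs decay fast, so most fall back soon after the signal ends. The gill is the fish's organ of gas exchange and ion balance and is in direct contact with the water. Roles of genes named below are known from mammals unless said otherwise.

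Total counts were 10128626 to 17092385 at pre-stress, 13921266 to 19851609 at 1 h and 14686078 to 15102528 at 6 h. On the other 13 of 29 chromosomes, counts at 6 h stopped early or were missing in at least some libraries, so those chromosomes were not used. By the names in the files, all 1 h libraries were run on lane 1, while pre-stress and 6 h libraries were on lane 3. The change at 1 h and the lane cannot be told apart, whereas 6 h and pre-stress libraries carry the same lane number. The 16 chromosomes held 79.9% to 99.1% of a library's counts at 6 h, against 72.3% to 72.7% at pre-stress. This difference between the count files and the change at 6 h cannot be told apart either. Summed CPM of gill ionocyte markers spanned 548 to 1150 at pre-stress, 604 to 1207 at 1 h and 736 to 1108 at 6 h, with the ionocyte factor foxi3a among those detected. The erythrocyte markers gave 798 to 1153, 797 to 1025 and 595 to 1592 CPM at the same times, and those of leukocytes 5385 to 6961, 5567 to 6838 and 4950 to 6332 CPM. Of the 4 ionocyte, 3 erythrocyte and 4 leukocyte markers tested, foxi3a at 6 h was the only one that passed the test against pre-stress, where it was higher (1.17 ± 0.14 SE, adjusted p = 3.64e-05 in edgeR). Of the 2 endothelial markers tested, pecam1a (mean 23.5 CPM) was lower at 6 h (-0.36 ± 0.08 SE, adjusted p = 0.00804 in edgeR). The more abundant pecam1b (380 CPM) did not pass at 6 h (-0.05 ± 0.09 SE, adjusted p = 0.776 in edgeR). The part of these cell types in the results was not tested. In whole gill, fewer cells of a type and less RNA per cell cannot be told apart.

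Salmon gene names were taken by position from the RefSeq annotation of the same assembly, Ssal_v3.1, which matched 94 of the 118 genes. The annotation used gives no strand, so a match was not checked for strand. It gave 19 of them a gene symbol and 75 a locus number only, and the 24 others are named by Ensembl identifier. Many salmon genes have a near-identical copy, and reads that fit several places were not counted, so the level of such a gene is a minimum.

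Over the 118 genes, the median difference from pre-stress was 1.25 in log2 CPM at 1 h (range 0.607 to 5.18) and 0.72 at 6 h (range 0.301 to 3.058). Over all 21543 expressed genes the medians were 0.001 at 1 h and -0.028 at 6 h. A difference of at least 1, a doubling, was seen in 80 of the 118 at 1 h and in 34 at 6 h. At 6 h the genes kept a median of 55.1% of their 1 h difference on the log2 scale, with quartiles of 37.8% and 81.4%. The genes were split into 3 kinds at shares of 50% and 100%. In 50 genes less than 50% was kept, in 48 genes between 50% and 100%, and in 20 genes the level at 6 h was at or above that at 1 h. The heat map of the 118 genes shows these as 3 blocks.

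**Figure D1:**
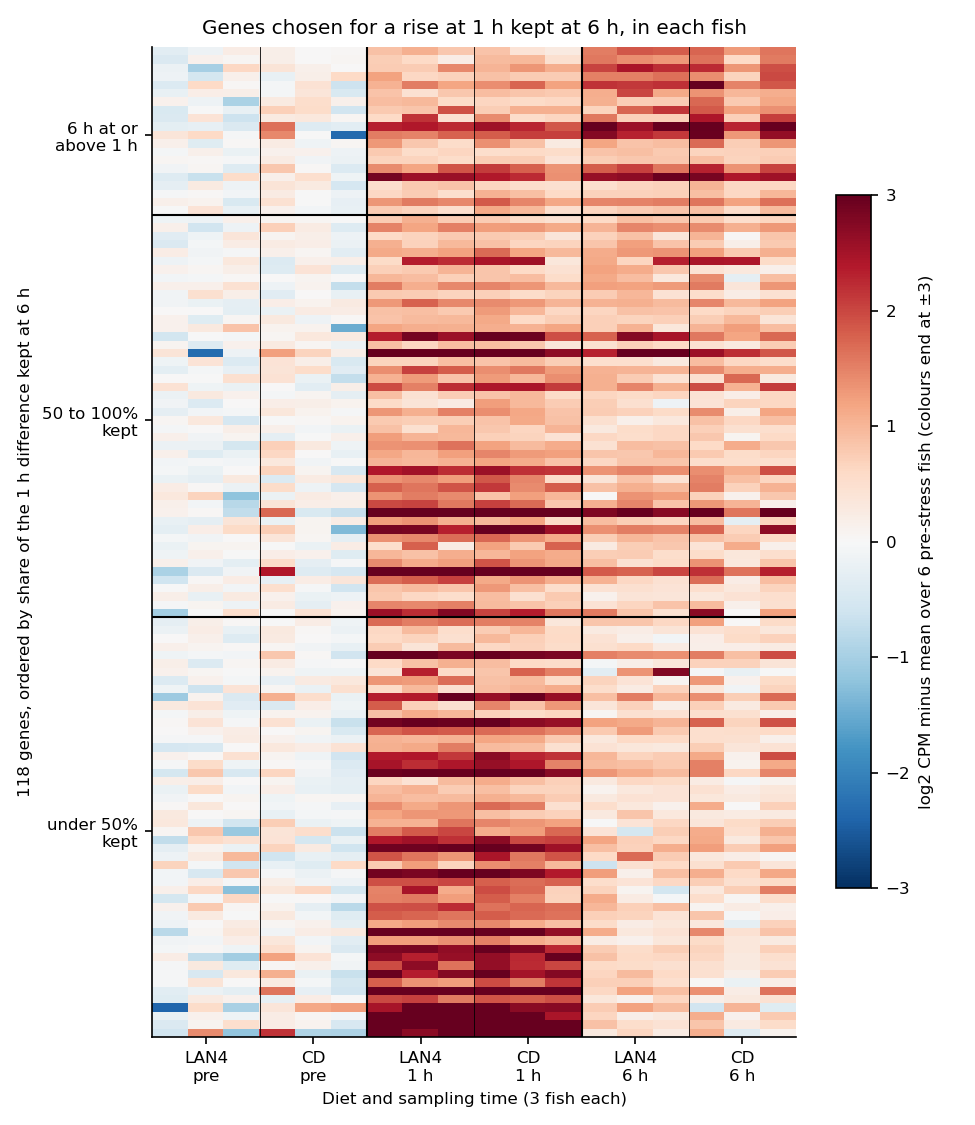
Log2 CPM of each of the 118 genes (rows) in each of the 18 fish (columns), minus the gene's mean over the 6 pre-stress fish; red is higher and blue lower. The 20 genes at the top were as high or higher at 6 h as at 1 h, the 48 in the middle kept 50% to 100% of the difference, and the 50 at the bottom kept less than 50%.

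The condition at 6 h used means over both diets only, so separate fish could overlap and 1 diet could carry a gene. In LAN4 the mean at 6 h was above pre-stress in 118 genes, and in CD in 115. In CD it was below in LOC106569355 (-0.908), LOC106599203 (-0.04) and ENSSSAG00000095668 (-0.034). The LAN4 differences of these genes were 1.902, 1.218 and 1.215. All 6 libraries at 6 h were above all 6 at pre-stress in 45 of the 118 genes (38.1%). The same held for 2.74% of all expressed genes, but a mean difference at 6 h was part of the choice, so nothing is read from the gap. A pair of fish stood out here. CD pre-stress fish 1 was the highest of the 6 pre-stress fish in 47 of the 118 genes (39.8%, against 17.1% of all expressed genes). CD 6 h fish 2 was the lowest of the 6 fish at 6 h in 64 genes (54.2%, against 28.1%). Without the first fish the count was 60 of 118 (3.6% of all expressed genes), without the second 64 (3.84%), and without both 74 (4.79%). The share of all expressed genes thus rose as well, since fewer fish overlap less. The count was not made without any other fish.

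Genes near the limits show what the choice kept and dropped. ENSSSAG00000056503 and LOC106606306 were the last genes inside the limit at 1 h, with differences of 0.607 and 0.626, and LOC106611340 and ENSSSAG00000112920 fell just outside with 0.594 and 0.585. At 6 h, ddit3 with 0.301 and LOC106600984 with 0.309 were just inside, and ENSSSAG00000049796 with 0.297 and LOC100196464 with 0.292 just outside. By mean CPM, LOC106572532 (1.32) and LOC106572760 (1.45) were inside, LOC106572129 (0.706) and LOC106563519 (0.575) outside. The lowest 1 h library of LOC106574967 lay only 0.003 above its highest pre-stress library, that of LOC106612135 0.009 above, and those of LOC106568333 and ENSSSAG00000004645 each 0.004 below, at -0.004. For ddit3 and the other genes just inside the limits on log2 CPM, membership thus rests on small differences. This does not hold for mean CPM, where the nearest genes were at 1.32 and 0.706 against a limit of 1.

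**Figure D2:**
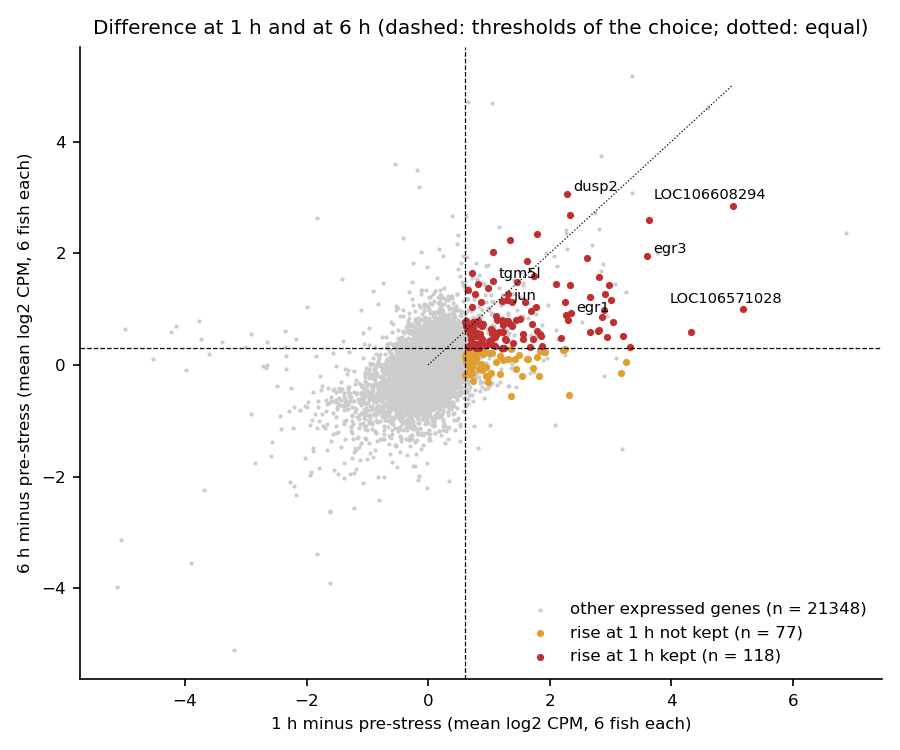
Mean difference from pre-stress at 1 h (x axis) and at 6 h (y axis) in log2 CPM, 6 fish at each time, for all 21543 expressed genes. The 118 chosen genes lie right of 0.6 and above 0.3, those above the dotted line (dusp2, tgm5l) were higher at 6 h than at 1 h, and the 77 genes below met the same condition at 1 h only.

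The gene with the highest level at 6 h relative to pre-stress was dusp2 (chromosome 20, 32172019 to 32175401), a nuclear phosphatase that switches off MAP kinases. In LAN4 fish, dusp2 was at 1.97, 2.04 and 1.78 CPM at pre-stress, 12.4, 13.2 and 11.7 CPM at 1 h, and 23.3, 14.6 and 20.4 CPM at 6 h. In CD fish, dusp2 was at 7.8, 1.86 and 1.95 CPM at pre-stress, 14.5, 12.0 and 9.03 CPM at 1 h, and 29.6, 12.0 and 31.0 CPM at 6 h. Every stressed fish was above every unstressed fish, the nearest being CD pre-stress fish 1 at 7.8 CPM. The mean difference was 2.28 at 1 h and 3.06 at 6 h on the log2 scale, a 4.86-fold and an 8.33-fold level. Unlike most of the 118 genes, dusp2 was thus higher at 6 h than at 1 h.

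Another gene of this late-keeping kind with a symbol was tgm5l (chromosome 12, 45640919 to 45649599), of the transglutaminases, enzymes that cross-link proteins. In LAN4 fish, tgm5l was at 13.4, 18.5 and 15.8 CPM at pre-stress, 32.0, 32.9 and 69.2 CPM at 1 h, and 29.6, 61.8 and 82.3 CPM at 6 h. In CD fish, tgm5l was at 30.5, 27.1 and 12.3 CPM at pre-stress, 31.0, 39.0 and 38.6 CPM at 1 h, and 66.7, 43.0 and 48.2 CPM at 6 h. Within each diet the fish at 1 h and at 6 h were all above their pre-stress group, while over both diets 1 fish at 6 h (29.6 CPM) lay below the highest pre-stress fish (30.5 CPM). The mean difference was 1.066 at 1 h and 1.501 at 6 h.

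Also at or above their 1 h level at 6 h were higd1a, a mitochondrial protein induced by low oxygen, and si:dkey-177p2.6, a zebrafish clone name with no role given. The difference of higd1a (chromosome 14, 31999622 to 32007266) was 0.633 at 1 h and 0.686 at 6 h, and that of si:dkey-177p2.6 0.760 and 0.767. In both genes all 6 fish at 6 h were above all 6 at pre-stress. The salmon model counted as higd1a also overlaps a second RefSeq gene, so its counts may belong to either. The 16 others of this kind have a locus number or Ensembl identifier only, with differences at 6 h of up to 2.68 (LOC106603727).

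Among the transcription factors with a symbol, egr3 (chromosome 20, 24871016 to 24876458), a zinc finger protein of the EGR family, had the largest difference. In LAN4 fish, egr3 was at 1.37, 1.95 and 2.46 CPM at pre-stress, 29.1, 32.9 and 29.6 CPM at 1 h, and 9.68, 9.15 and 10.8 CPM at 6 h. In CD fish, egr3 was at 14.2, 2.02 and 1.85 CPM at pre-stress, 49.1, 39.0 and 22.9 CPM at 1 h, and 12.3, 8.32 and 13.6 CPM at 6 h. CD pre-stress fish 1, at 14.2 CPM, was above every fish at 6 h, and the other 5 pre-stress fish were below all of them. The differences were 3.60 at 1 h, a 12.1-fold level, and 1.96 at 6 h.

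Its relative egr1 (chromosome 13, 54654667 to 54659734) kept less. In LAN4 fish, egr1 was at 8.07, 7.52 and 9.97 CPM at pre-stress, 38.5, 39.0 and 32.1 CPM at 1 h, and 14.5, 11.7 and 12.5 CPM at 6 h. In CD fish, egr1 was at 7.72, 6.64 and 4.93 CPM at pre-stress, 48.3, 35.6 and 32.8 CPM at 1 h, and 16.3, 8.05 and 28.7 CPM at 6 h. Only CD 6 h fish 2, at 8.05 CPM, fell within the pre-stress range. The difference was 2.35 at 1 h and 0.945 at 6 h, 40.3% of the 1 h value. The name egr1 rests on a RefSeq gene that covers 0.18 of the Ensembl model's span and lies wholly inside it.

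Jun, the core partner of AP-1, behaved differently from egr1 and kept 88.9% of its 1 h difference. In LAN4 fish, jun (chromosome 10, 30343488 to 30346180) was at 10.4, 10.4 and 12.7 CPM at pre-stress, 27.1, 20 and 25.4 CPM at 1 h, and 22.1, 21.5 and 22.5 CPM at 6 h. In CD fish, jun was at 8.37, 10.1 and 5.64 CPM at pre-stress, 25.8, 23.3 and 18.3 CPM at 1 h, and 27.4, 12.1 and 23.5 CPM at 6 h. Again CD 6 h fish 2 (12.1 CPM) was the only fish at 6 h inside the pre-stress range, which reached 12.7 CPM. The differences were 1.30 at 1 h and 1.16 at 6 h.

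The stress-induced factors atf3 and ddit3, both partners of C/EBP and AP-1 proteins in the response to misfolded protein and amino acid lack, had smaller differences at 6 h. In LAN4 fish, atf3 (chromosome 15, 40452811 to 40456809) was at 7.81, 6.5 and 5.73 CPM at pre-stress, 18.8, 15.4 and 16.6 CPM at 1 h, and 13.2, 9.63 and 10.6 CPM at 6 h. In CD fish, atf3 was at 10.3, 5.83 and 6.88 CPM at pre-stress, 26.2, 17.8 and 15.4 CPM at 1 h, and 17.8, 8.73 and 12.5 CPM at 6 h. The atf3 groups at 1 h and pre-stress were far apart, and those at 6 h and pre-stress overlapped through CD pre-stress fish 1. For atf3 the differences were 1.35 at 1 h and 0.734 at 6 h, and for ddit3 (chromosome 12, 91663735 to 91665731) 0.792 and 0.301, the smallest at 6 h of all 118. The ddit3 model lies inside the RefSeq locus and covers 0.33 of its span.

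**Figure D3:**
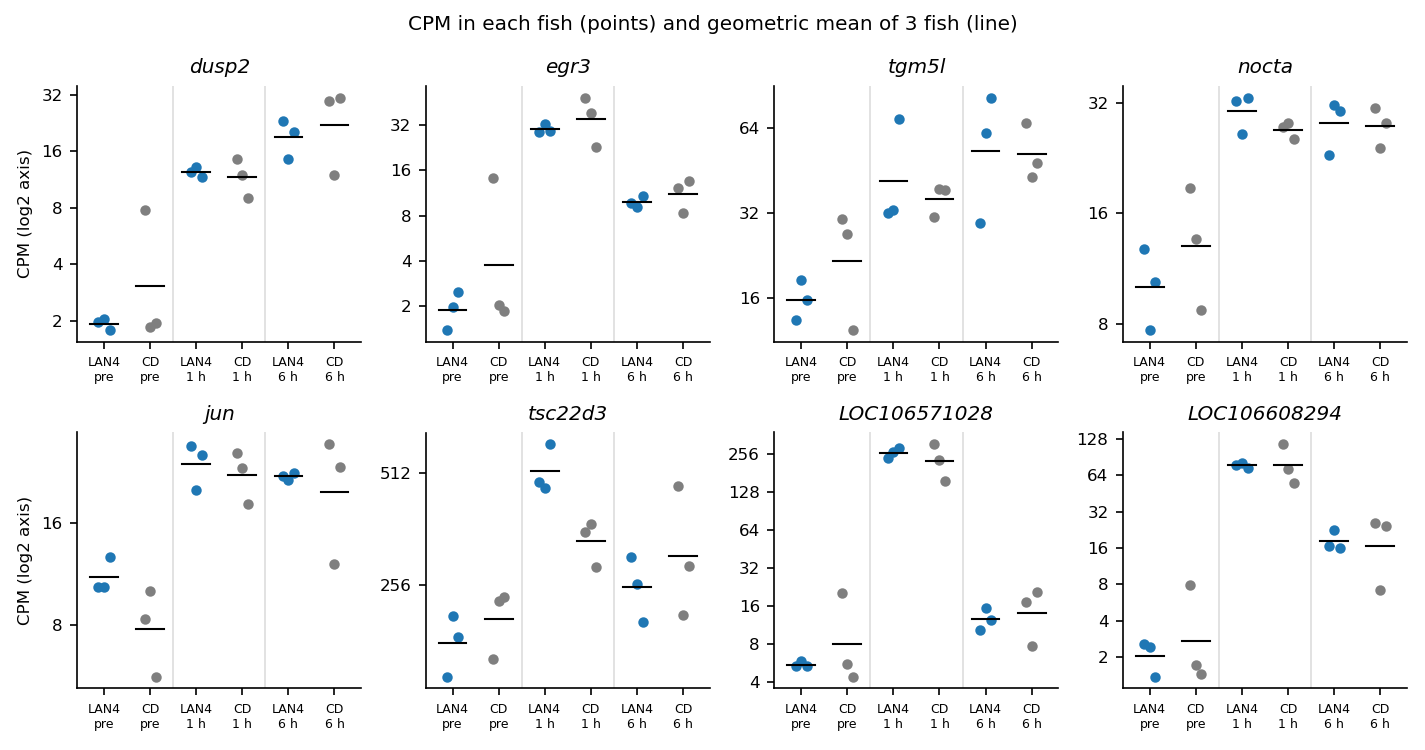
CPM on a log2 axis in each fish (points: blue LAN4, grey CD) with the geometric mean of 3 fish (line) for 8 of the 118 genes, by diet and sampling time. In dusp2, egr3, LOC106571028 and LOC106608294 the highest pre-stress point is CD fish 1 (7.8, 14.2, 20.3 and 7.88 CPM), while jun at 6 h is level with 1 h in all fish but CD fish 2 (12.1 CPM).

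The other signalling genes were trib1, midn and areg. Trib1, a pseudokinase that directs C/EBP factors to breakdown, had differences of 0.857 at 1 h and 0.561 at 6 h. Midn, a carrier of nuclear immediate early proteins to the proteasome, had 0.828 and 0.737. In LAN4 fish, midn (chromosome 10, 20814251 to 20845842) was at 32.4, 33.0 and 35.0 CPM at pre-stress, 68.9, 65.2 and 56.6 CPM at 1 h, and 76.1, 64.9 and 42.5 CPM at 6 h. In CD fish, midn was at 34.6, 36.6 and 34.7 CPM at pre-stress, 61.3, 65.4 and 50.5 CPM at 1 h, and 91.2, 28.7 and 64.1 CPM at 6 h. Pre-stress levels of midn were within a narrow band, and at 6 h CD fish 2 (28.7 CPM) was below that band while the 5 others were above it. The epidermal growth factor receptor ligand areg kept 35.2% of its difference, which was 1.29 at 1 h and 0.452 at 6 h.

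Of the 19 genes with a symbol, few were linked to hormones or the clock, and genes without a symbol could not be sorted this way. Tsc22d3 (chromosome 9, 94782756 to 94793319) is induced by glucocorticoids and restrains inflammatory signalling. In LAN4 fish, tsc22d3 was at 145, 211 and 185 CPM at pre-stress, 484, 467 and 612 CPM at 1 h, and 305, 257 and 204 CPM at 6 h. In CD fish, tsc22d3 was at 162, 231 and 238 CPM at pre-stress, 356, 373 and 286 CPM at 1 h, and 471, 212 and 288 CPM at 6 h. At 1 h the LAN4 and CD fish did not overlap, with LAN4 higher, and at 6 h the diets and the pre-stress range overlapped. With the diets pooled its differences were 1.12 at 1 h and 0.531 at 6 h. The Ensembl model lies inside the tsc22d3 locus and covers 0.22 of its span.

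Nocta (chromosome 5, 34578333 to 34594101), or nocturnin, a phosphatase with a daily rhythm in many tissues, kept nearly all of its difference. In LAN4 fish, nocta was at 12.8, 7.71 and 10.4 CPM at pre-stress, 32.3, 26.3 and 33.0 CPM at 1 h, and 23.1, 31.5 and 30.4 CPM at 6 h. In CD fish, nocta was at 18.7, 13.6 and 8.72 CPM at pre-stress, 27.5, 28.2 and 25.4 CPM at 1 h, and 30.9, 24.1 and 28.2 CPM at 6 h. All 12 stressed fish were above all 6 unstressed fish, and the levels at 1 h and 6 h overlapped. The differences were 1.32 at 1 h and 1.28 at 6 h, 96.8% of the 1 h value.

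Insulin-like growth factor binding proteins hold IGF in the blood and are known in fish to follow stress. The model named igfbp3 (chromosome 10, 40626357 to 40667188) spans igfbp1a as well, so its counts cannot be assigned to either. Its level was low, at 0.647 to 1.12 CPM at pre-stress, 2.4 to 4.65 CPM at 1 h and 1.72 to 3.65 CPM at 6 h over both diets. These ranges do not overlap between stressed and unstressed fish, and the differences were 2.11 and 1.45. The last genes with a symbol had small differences at 6 h. These were the RNA-binding rbpms2a (0.564), zgc:153115 (0.517, a clone name), the nuclear receptor coactivator ncoa7a (0.329) and the vesicle fusion protein vamp5 (0.312).

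The 3 largest differences at 1 h belonged to genes without a symbol. LOC106571028 (chromosome 15, 19617124 to 19619486) was at 5.32, 5.85 and 5.33 CPM in LAN4 fish and 20.3, 5.58 and 4.41 CPM in CD fish at pre-stress. At 1 h it was at 236, 265 and 285 CPM in LAN4 fish and 306, 231 and 157 CPM in CD fish. At 6 h it was at 10.3, 15.3 and 12.5 CPM in LAN4 fish and 17.1, 7.77 and 20.7 CPM in CD fish. The level at 1 h was 36.3-fold that at pre-stress and the level at 6 h 1.99-fold, so 19.2% of the log2 difference was kept, and CD pre-stress fish 1 lay inside the 6 h range.

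LOC106608294 (chromosome 6, 90241037 to 90244190) kept more of a similar difference. In LAN4 fish, LOC106608294 was at 2.57, 2.41 and 1.37 CPM at pre-stress, 78.6, 80.4 and 73.9 CPM at 1 h, and 16.7, 22.6 and 15.9 CPM at 6 h. In CD fish, LOC106608294 was at 7.88, 1.7 and 1.44 CPM at pre-stress, 116, 72.7 and 55.5 CPM at 1 h, and 25.7, 7.22 and 24.1 CPM at 6 h. Its level was 32.4-fold at 1 h and 7.23-fold at 6 h, with CD 6 h fish 2 just under CD pre-stress fish 1. ENSSSAG00000045856 (chromosome 12, 60296516 to 60324429) was 20.1-fold higher at 1 h and 1.5-fold higher at 6 h, the least of its difference kept among these 3 (13.5%).

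Of the stress, hormone and tissue gene lists, some held several of the 118 and some none. List genes were matched by symbol, so only the 19 of the 118 with a symbol could be found in a list. Genes outside the 118 are given by the pooled test of edgeR, with p-values adjusted over 23153 genes. In that test 2.88% of all genes were higher and 1.51% lower at 1 h, and 6.34% higher and 5.34% lower at 6 h. Of 13 immediate early genes measured, 4 were among the 118 (jun, egr1, egr3, atf3), 6 had been left out by identifier, and 3 remained. Of these 3, nr4a3, a nuclear receptor, rose at 1 h (0.63 ± 0.14 SE, adjusted p = 0.0193) and at 6 h (1.19 ± 0.14 SE, adjusted p = 5.05e-05), and mycb fell at 1 h. Of 11 genes of the integrated stress and unfolded protein responses, atf3 and ddit3 were among the 118 and 1 was left out by identifier. In the 8 others 1 rose at 1 h and 3 at 6 h, with xbp1, a factor of the unfolded protein response, in both counts (0.50 ± 0.08 SE at 1 h, adjusted p = 9.36e-04).

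Of 16 hypoxia-responsive genes only higd1a was among the 118, and in the 15 others 1 rose at 1 h (egln3), and 1 rose and 1 fell at 6 h. Of 7 glucocorticoid-responsive genes tested, tsc22d3 was among them and 1 was left out by identifier. In the 5 others none rose and 1 fell at 1 h, and 1, foxo3b, rose at 6 h. Of 12 insulin, FoxO and TOR signalling genes, trib1 was among the 118, and in the 11 others 1 rose and 1 fell at 1 h and 2 rose at 6 h. No gene matched to the lists for the circadian clock, heat shock and chaperones or gill ion transport was among the 118. The 27 clock names matched 11 genes, the 21 heat shock and chaperone names 7 and the 22 ion transport names 9. A member without a symbol may still belong to any of these lists. Of 10 clock genes tested 1 rose at 1 h (tef), and 3 rose and 1 fell (rorca) at 6 h. Of 7 heat shock and chaperone genes none passed at 1 h and 1 rose at 6 h (dnajb1a). Of 9 genes tested on the ion transport list 2 rose at 1 h (atp1b1a and slc12a3) and 1 at 6 h (foxi3a, an ionocyte factor and not a transporter). The condition at 1 h shaped which list genes stayed outside, so these counts describe the lists and are not a test of them.

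As gene models, the 118 were compact. Their median span was 7624 bases with 5 exon blocks, against 17675 bases and 10 blocks over all expressed genes, and 18.6% had 1 or 2 blocks, against 7.4%. The 77 genes that met the condition at 1 h but not at 6 h had a median span of 7584 bases and 5 blocks, close to the medians of the 118. Of these 77, 27.3% had 1 or 2 blocks, more than in the 118, so compact models were not particular to the kept rise. The 118 lay on all 16 chromosomes, with 16 of them on chromosome 3 and 1 on chromosome 19, and made up 0.11% to 1.11% of the expressed genes of a chromosome (0.548% in all). A single pair lay within 100 kb, LOC106565395 and LOC106565396 on chromosome 12, 71042 bases apart.

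Whether the diet altered these genes was asked at each time with edgeR's quasi-likelihood test, and none of the 118 passed at an adjusted p of 0.05. At pre-stress 0 of 118 differed between LAN4 and CD (0.00864% of all genes tested), at 1 h 0 of 118 (0.0%) and at 6 h 0 of 118 (0.587%). The change from pre-stress to 1 h differed between diets in 0 of 118 (0.00864%), that from pre-stress to 6 h in 0 (0.00432%) and that from 1 h to 6 h in 0 (0.0173%). At an unadjusted p under 0.05 there were 12 genes at pre-stress (10.17%, against 9.29% of all genes tested), 15 at 1 h (12.71%, against 8.33%) and 12 at 6 h (10.17%, against 15.4%). For the 3 changes there were 14 (11.86%, against 9.84%), 6 (5.08%, against 4.26%) and 15 (12.71%, against 16.9%). These shares lay on both sides of those of all genes. With 118 genes, a few genes more or less move a share, so nothing is read from the gaps. DESeq2 called 1 of the 118 at pre-stress (0.786% of all genes), 1 at 1 h (0.0944%) and 1 at 6 h (3.5%), and 1 (0.229%), 0 (0.0346%) and 2 (2.75%) for the 3 changes. At pre-stress it gave no adjusted p for 18 of the 118. With the replicate number as a block, edgeR called 0 of the 118 at pre-stress (0.00432% of all genes). The share of all genes at 6 h depended on single fish, with 362 genes called without CD pre-stress fish 1 and 0 without CD fish 2, LAN4 fish 2 or LAN4 fish 3 of the 6 h groups, against 136 with all fish. Samples of 3 fish limit what can be seen, and a missed threshold does not show that the diets were alike. Nor could the 118 hold a gene that rose at 1 h in 1 diet only.

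The signs of the diet differences were uneven. The median log2 fold change of LAN4 over CD in the 118 genes was -0.09 at pre-stress, 0.10 at 1 h and -0.07 at 6 h. The medians over all genes were -0.00305, -9.75e-05 and -0.0126. At pre-stress 42 of 118 were higher in LAN4, at 1 h 75, and at 6 h 51. The change from pre-stress to 1 h was larger in LAN4 in 81 of 118, with a median difference of 0.17, and the 14 genes at an unadjusted p under 0.05 were all in this direction. Over all genes 49.5% had this sign and the unadjusted calls were 1060 larger and 1218 smaller in LAN4. In plain differences of mean log2 CPM, compared after the data were seen, the count was 78 of 118 with TMM scaling and 68 without it, and without CD pre-stress fish 1 the median of the edgeR differences was -0.01. Without that single fish the median was thus near 0, and the counts of 81 and 14 are not given without it.

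**Figure D4:**
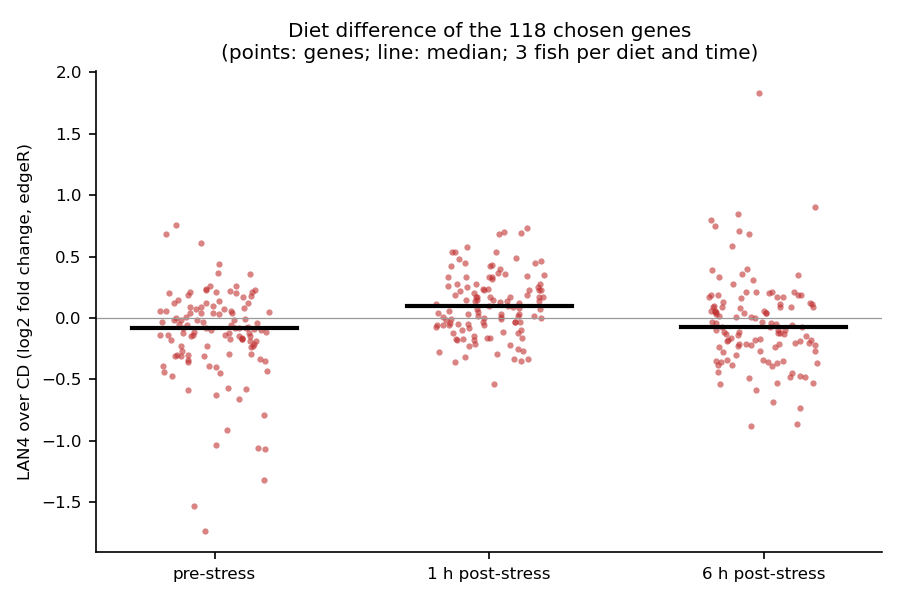
Log2 fold change of LAN4 over CD (y axis, edgeR) for each of the 118 genes (points) at pre-stress, 1 h and 6 h, 3 fish per diet and time, with the median as a line. The medians are -0.09, 0.10 and -0.07, and no point passed an adjusted p of 0.05.

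Gene by gene, the lowest p-values for diet were found in genes without a symbol. LOC106607080 (chromosome 6, 34036864 to 34049482) was at 16.6, 16.8 and 23.6 CPM in LAN4 fish and 29.5, 27.7 and 31.7 CPM in CD fish at pre-stress. At 1 h it was at 49.8, 51.7 and 68.4 CPM in LAN4 fish and 45.7, 44.1 and 32.8 CPM in CD fish. At 6 h it was at 32.0, 30 and 28.6 CPM in LAN4 fish and 39.0, 30.3 and 31.6 CPM in CD fish. LAN4 was below CD before stress and above it at 1 h, without overlap at either time. The log2 fold change was -0.66 ± 0.16 SE at pre-stress (edgeR adjusted p = 0.214, DESeq2 adjusted p = 0.0395), and the change to 1 h was larger in LAN4 by 1.20 ± 0.23 SE (edgeR adjusted p = 0.213, DESeq2 adjusted p = 0.00441). The next lowest at pre-stress and for this change was ENSSSAG00000099349, with -0.63 at pre-stress (adjusted p = 0.359 in edgeR), or -0.37 without CD pre-stress fish 1.

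At 1 h, LOC106599739 (chromosome 3, 31170860 to 31174177) was at 186, 184 and 194 CPM in LAN4 fish, against 131, 121 and 110.0 CPM in CD fish. At pre-stress it was at 66.1, 71.9 and 61.2 CPM in LAN4 fish, against 79.5, 55.7 and 73.6 CPM in CD fish. The diets were apart at 1 h and overlapped at pre-stress. The difference at 1 h was 0.70 ± 0.16 SE (edgeR adjusted p = 0.46, DESeq2 adjusted p = 0.0494). ENSSSAG00000088306 followed with 0.54 (edgeR adjusted p = 0.522). Tsc22d3, the glucocorticoid-induced gene above, was 0.69 ± 0.24 SE higher in LAN4 at 1 h (edgeR adjusted p = 0.572), and its mean at 6 h was further below that at 1 h in LAN4 than in CD, with a difference between the changes of -1.07 ± 0.33 SE (adjusted p = 0.0462 in DESeq2 and 0.14 in edgeR).

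At 6 h, ENSSSAG00000061254 (chromosome 19, 27229575 to 27239011) was at 13.9, 13.0 and 10.7 CPM in LAN4 fish, against 8.16, 7.5 and 6.74 CPM in CD fish. The diets did not overlap, and the difference of 0.71 ± 0.19 SE had an adjusted p of 0.0782 in edgeR and 0.0218 in DESeq2. It also passed in edgeR once CD pre-stress fish 2 was left out of the model (adjusted p = 0.0485). Trib1 was at 7.34, 5.87 and 6.5 CPM in LAN4 fish, against 9.75, 8.05 and 9.92 CPM in CD fish. It was thus lower in each LAN4 fish, with a log2 fold change of -0.53 ± 0.17 SE (edgeR adjusted p = 0.126). For the change from 1 h to 6 h the lowest was LOC106568458, with 0.95 ± 0.27 SE (edgeR adjusted p = 0.123, DESeq2 adjusted p = 0.038). For that from pre-stress to 6 h, LOC106569355 had 2.28 ± 0.77 SE and ENSSSAG00000008247 1.31, each with an edgeR adjusted p of 0.996. LOC106569355 was at no more than 1.54 CPM in any pre-stress fish, so few counts lie behind its value. With 1 library left out that value ran from 1.75 to 3.63, the latter without LAN4 pre-stress fish 2. LOC106569355 met the limit at 6 h through LAN4 alone, with a mean difference from pre-stress of 1.902 in LAN4 and -0.908 in CD.

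Libraries of LAN4 and CD did not overlap in 13 of the 118 genes at pre-stress (5 higher and 8 lower in LAN4; 11.0%, against 16% of all expressed genes). At 1 h they did not overlap in 18 (15 higher and 3 lower; 15.3%, against 15.1%), and at 6 h in 17 (13 higher and 4 lower; 14.4%, against 19.3%). The shares were thus near or below those of all expressed genes. Of all expressed genes without overlap, 1959 were higher and 1487 lower in LAN4 at pre-stress. At 1 h these were 1045 and 2218, and at 6 h 2747 and 1418. In these counts the 118 genes leaned as all expressed genes did at 6 h, and the other way at pre-stress and 1 h. The lean at 1 h depended on the measure. In the TMM-scaled edgeR test at 1 h, 1099 of all genes were higher and 829 lower in LAN4 at an unadjusted p under 0.05. Of the 118, 14 were higher and 1 lower in that test, the same way. Nothing is thus read from these leans.

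In their average over the 118 genes, the 3 LAN4 fish of each time lay closer together than the 3 CD fish. Averaged over the genes as log2 CPM minus the pre-stress mean, the LAN4 fish were at -0.12, 0.03 and -0.05 at pre-stress, 1.57, 1.61 and 1.58 at 1 h, and 0.87, 0.94 and 0.88 at 6 h. The CD fish were at 0.29, 0.06 and -0.20 at pre-stress, 1.74, 1.56 and 1.32 at 1 h, and 1.09, 0.60 and 0.95 at 6 h. At 1 h every fish had to be above every pre-stress fish in this average, because the choice required it of each gene. At 6 h every fish was also above every pre-stress fish, but a mean rise was part of the choice. The SD over 3 fish was 0.078 in LAN4 and 0.243 in CD at pre-stress, 0.023 and 0.208 at 1 h, and 0.037 and 0.251 at 6 h. As the average is over chosen genes, no test of it was made. In the 77 genes that met the condition at 1 h only, LAN4 fish were at 1.08, 1.06 and 1.09 at 1 h. The CD fish were at 1.27, 1.07 and 0.93. At pre-stress these genes were at -0.06, 0.08 and -0.05 in LAN4 and 0.14, 0.01 and -0.11 in CD. At 6 h they were at 0.06, 0.07 and 0.09 in LAN4 and 0.06, -0.0 and 0.06 in CD. Over all expressed genes, CD 6 h fish 2 was at -0.135, and fish 1 and 3 at -0.039 and -0.071.

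**Figure D5:**
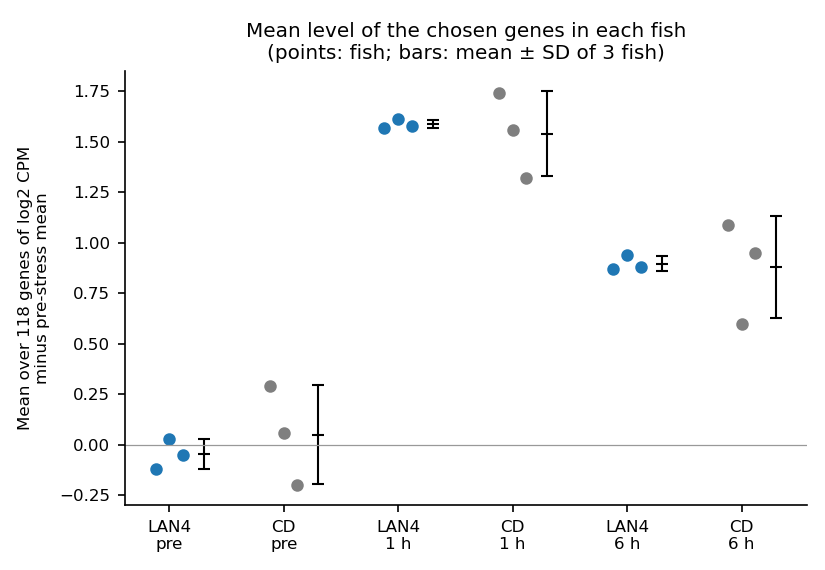
Mean over the 118 genes of log2 CPM minus the pre-stress mean (y axis) in each fish (points: blue LAN4, grey CD), with the mean ± SD of 3 fish. At each time the CD fish lie farther apart (SD 0.243, 0.208 and 0.251) than the LAN4 fish (SD 0.078, 0.023 and 0.037).

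Gene by gene, the median SD of the 118 within a group was 0.274 in LAN4 and 0.268 in CD at pre-stress, 0.159 and 0.249 at 1 h, and 0.188 and 0.283 at 6 h. Over all expressed genes it was 0.191 and 0.166, 0.185 and 0.174, and 0.169 and 0.201. The SD was smaller in LAN4 than in CD in 66 of the 118 at pre-stress (55.9%, against 44.0% of all expressed genes), in 78 at 1 h (66.1%, against 46.9%) and in 80 at 6 h (67.8%, against 58.2%). At pre-stress single genes thus varied about as much in LAN4 as in CD, while the average over genes varied more in CD, where fish 1 was the highest of all 6 fish in 47 genes. The 77 genes whose rise was not kept ran the same way at 1 h, with a median SD of 0.132 in LAN4 and 0.214 in CD, and at 6 h had 0.175 and 0.172. The part of tank or of single fish in these spreads was not tested.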

How the data were processed

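Gill RNA of 18 fish was sequenced from stranded mRNA libraries (150 bp paired ends). The authors aligned reads to Ssal_v3.1 with nf-core rnaseq and deposited, per fish, raw counts of fragments per Ensembl gene from featureCounts (Subread 1.5.1), counted by strand, without reads that mapped to several places or genes. Genes outside the 16 chromosomes complete in all libraries were left out. CPM used the sum over these chromosomes, and log2 CPM a pseudocount of 0.5. Counts were tested with edgeR 4.0.16 (TMM, filterByExpr, robust quasi-likelihood fit, 1 mean per group over all 18 libraries) in R 4.3.3, with Benjamini-Hochberg adjustment over 23153 genes. All 118 genes passed the filter. DESeq2 1.42.0 served as an alternative, beside a replicate block, other filters, chromosomes, libraries left out 1 at a time, and other settings of the choice. The test was checked on simulated data.

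The genes and the lists were chosen with earlier results of these data known. Genes were named if they had a symbol (up to 20, by the difference at 6 h), had the 3 largest differences at 1 h, the 2 lowest p-values of a diet comparison, stood in a list, or lay next to a limit. A RefSeq name needed an overlap of 0.5 of both spans, or the only overlapping gene with 0.9 of 1 span and 0.1 of the other. Promoter sequences were not used here. Counting by fragment has no molecular identifiers. The labels share replicate numbers across groups, but no source ties a number to a shared tank or day. Same-numbered fish deviated together between LAN4 and CD at pre-stress only (r of 0.114 to 0.151), among the diet comparisons at each time.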

Additional observations from a re-analysis of the deposited data

How the results depend on the processing

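The number of genes meeting the choice was 121 with TMM scaling, 114 with a pseudocount of 2, 101 with a mean CPM of at least 5 and 127 with no minimum. It was 71 when 0.6 was asked at 6 h, 243 within LAN4 alone and 379 within CD alone, where 3 fish had to stand above 3. Of the 118 genes, 102 were met within LAN4 alone and 102 within CD alone. Leaving out 1 library gave 116 to 150 genes (150 without CD pre-stress fish 1) and medians of 1.21 to 1.30 at 1 h and 0.68 to 0.76 at 6 h. DESeq2 called 1 gene at pre-stress, 1 at 1 h, 1 at 6 h, 1 for the change to 1 h and 2 for the change from 1 h to 6 h, where edgeR called 0; the cause was not tested. Over all genes DESeq2 called 129, 21, 811, 53 and 575 in these comparisons. With 1 library left out, edgeR called 0 to 1 of the 118 at 6 h (0 to 362 of all genes) and 0 in the other diet comparisons. Medians of the diet differences then ran from -0.16 to 0.04 at pre-stress, 0.03 to 0.19 at 1 h and -0.16 to 0.05 at 6 h. They ran from -0.01 to 0.28 for the change to 1 h, -0.08 to 0.18 for that to 6 h and -0.29 to -0.05 for that from 1 h to 6 h. With all chromosomes, no filter on low counts, or only the groups compared, edgeR called 0 of the 118 in each diet comparison.

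With the replicate number as a block, 0 of the 118 were called in each diet comparison, with medians of -0.08, 0.10 and -0.05 at the 3 times. Over all groups, same-numbered fish did not deviate together (r from -0.202 to 0.268, median 0.008, over 0.1 in 12 of 45 pairs). All 3 pairs were over 0.1 between LAN4 and CD at pre-stress (0.114, 0.151 and 0.142) and between LAN4 at 1 h and 6 h (0.203, 0.15 and 0.187).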
